A study of Rattus norvegicus with 12 samples.

Results

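The genes described here are the collagen genes, 39 of the 35833 gene names on the array, chosen as every name made of Col, a type number and an alpha chain number on a spot that is not a control. They were carried by 54 of the 45598 probes, and 13 of them by several probes. By class there were 11 fibrillar collagens, 7 basement membrane collagens, 8 network and beaded filament collagens and 13 others. A further 18 probes named a collagen gene only in their description or accession, among them those of Col4a2, Col6a1 and Col12a1, and are given apart as other probes. The data come from 12 Agilent arrays hybridised in 1 colour with RNA of F344 rat liver cells, 3 arrays to each of 4 groups.

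The cultured cells of LN111, LN511 and Mat were small hepatocytes, progenitor-like cells obtained from collagenase-perfused adult rat liver. All of them had been sorted on magnetic columns for CD44 at day 9 after plating, grown on Matrigel, a basement membrane extract, in serum-free medium (10 mM nicotinamide and 10 ng/mL EGF, with L-proline, ITS, dexamethasone and ascorbic acid-2-phosphate), and used at passage 2. They were then kept for 3 h on laminin-111 (LN111), on laminin-511 (LN511) or on Matrigel (Mat). MH cells were mature hepatocytes taken freshly from the liver, so sorting, culture, passage and coating all separate the cultured groups from MH at once and cannot be told apart. Nothing in the labels tells whether the 3 replicates of a group are separate animals or cultures. The p-values therefore reflect the spread among these arrays, which may be technical.

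A collagen molecule is a triple helix of 3 alpha chains, wound in the endoplasmic reticulum, secreted and assembled outside the cell. Fibrillar collagens such as types I, III and V build the cross-banded fibres of interstitial matrix, type IV forms the sheet of basement membranes, and type VI makes beaded filaments beside cells. In liver, hepatic stellate cells and fibroblasts are the main source of fibrillar collagen in scarring, while hepatocytes are known to make type XVIII, the precursor of endostatin.

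A level below is the log2 of the processed Cy3 signal minus the 75th percentile of that array, so 0 is a probe as bright as that percentile, and levels of different probes are not compared. Arrays are listed as replicates 1, 2 and 3. Between 52.2% and 62.7% of the 58717 spots per array were well above background, none was saturated, and LN111 replicate 3 stood apart in having 1126 spots marked as outliers, against 350 to 499 on the other arrays. The sort marker Cd44 lay between 2.32 and 2.96 on the cultured arrays and was not well above background on any MH array, and as the basis of the sort this difference is no finding. Albumin (Alb), the main secreted protein of hepatocytes, lay between 5.29 and 6.53 on the cultured arrays, against 7.18 to 7.49 on the MH arrays.

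Not every collagen gene could be tested. The fit over all 12 arrays took a gene when some group had all 3 of its arrays well above background for a probe, which 26 of the 39 met, 12 of them through cultured arrays alone, 3 through MH arrays alone and 11 through both. The first 2 kinds entered only through groups where they were well above background, which favours a difference from the other side without forcing one. The same filter was applied to the other gene lists below. The counts below therefore describe the genes measured and are no evidence about collagens as a class. The 13 genes not tested were Col4a3, Col4a4, Col6a5, Col8a2, Col9a1, Col10a1, Col11a2, Col17a1, Col19a1, Col22a1, Col24a1, Col25a1 and Col26a1, of which 9 were well above background on no array by any probe. On all 3 arrays of a group, 21 collagen genes were well above background in LN111, 18 in LN511, 22 in Mat and 14 in MH.

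Between cultured cells and MH, most measured collagen genes were higher in culture. With cultured taken as the mean of the 3 coatings, 16 of 26 rose and 5 fell at an adjusted p under 0.05, where the call rate over all 18914 genes was 72.8% (30.8% higher and 42% lower). Without scaling between arrays the split was 19 higher and 3 lower, but the median over all genes then also moved up, to 0.86. The median fitted log2 difference was 2.75 over the 26 collagen genes and -0.18 over all genes. It was 1.72 with the 8 genes not well above background on one side set at the bound explained below, 0.99 with normexp background correction, and 0.54 over all 39 genes with no filter, where 16 were higher and 15 lower. The median over all genes was -0.40 with normexp and -0.60 with no filter. The rises covered 7 of 9 fibrillar genes tested, 4 of 5 basement membrane genes, 1 of 5 network and beaded filament genes and 4 of 7 others, with class medians of 3.26, 4.27, 0.94 and 2.54, or 3.22, 2.08, 0.94 and 1.03 with genes at their bounds. In 17 of the 26 genes the 9 cultured arrays did not overlap the 3 MH arrays, against 57.5% of all genes. These tests used limma on the whole array with Benjamini-Hochberg adjustment, and with the slide as a block 18 collagen genes passed, the calls of Col18a1, Col27a1 and Col6a6 being lost.

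**Figure D1:**
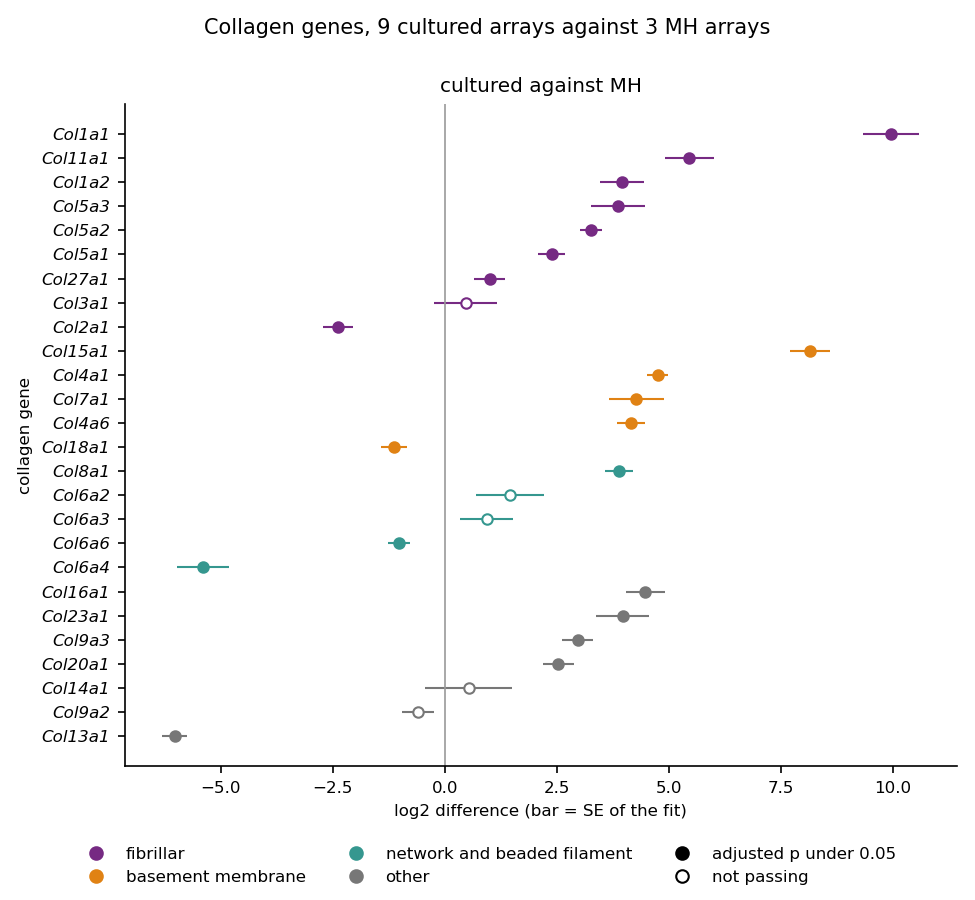
Log2 difference of the 26 collagen genes tested, 9 cultured arrays against 3 MH arrays, with the standard error of the limma fit as bars, coloured by class and filled where the adjusted p was under 0.05. Of 26 points 21 are filled, 16 to the right and 5 to the left of 0, and those of genes not well above background in cultured cells or in MH are fitted values that do not measure a size. Col3a1, Col6a3 and Col6a2 are open symbols at 0.47, 0.94 and 1.45.

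Type I collagen, the main fibre of scar and connective tissue, is a heterotrimer of the Col1a1 and Col1a2 chains. Col1a1 had levels of 4.97, 5.47 and 5.88 on LN111, 2.80, 0.07 and 1.04 on LN511 and 4.27, 3.88 and 4.40 on Mat, against -6.15, -7.86 and -4.95 in MH. Every cultured array was above every MH array, where the probe was well above background on only 1 of 3. The fitted difference, cultured minus MH, was 9.96 ± 0.62 (SE; limma adjusted p = 2.351e-07), and the other Col1a1 probe gave 9.32. This size leans on dim MH signal and is uncertain. With dim signals raised to background the largest difference of any called collagen gene was 8.89, and with normexp background correction it was 7.25. Col1a2 had levels of 5.48, 5.57 and 6.19 on LN111, 3.44, 0.65 and 2.00 on LN511 and 5.09, 4.51 and 5.19 on Mat, against -0.37, 0.74 and 0.47 in MH. LN511 replicate 2 fell inside the MH range and the other cultured arrays lay above it. Col1a2 rose by 3.95 ± 0.48 over MH (adjusted p = 3.328e-05), and was measured well above background on all 12 arrays.

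Type V collagen co-assembles with type I and regulates fibril diameter, and averaged over the coatings its 3 chains all rose. Col5a1 had levels of 2.26, 2.17 and 3.40 on LN111, -0.44, -0.35 and -0.84 on LN511 and 1.63, 1.16 and 1.59 on Mat, against -1.83, -0.75 and -1.04 in MH, so LN511 and MH overlapped. Col5a2 had levels of 1.19, 0.68 and 1.95 on LN111, -1.19, -0.67 and -0.91 on LN511 and 0.42, -0.07 and 0.47 on Mat, against -3.33, -2.99 and -2.83 in MH, with no overlap between cultured and MH arrays. The differences were 2.38 ± 0.29 for Col5a1 (adjusted p = 3.655e-05) and 3.26 ± 0.25 for Col5a2 (adjusted p = 1.008e-06). Col5a3 had levels of 2.00, 0.65 and 2.29 on LN111, -1.77, -4.37 and -3.56 on LN511 and 1.03, -1.21 and 0.86 on Mat, against -4.29, -4.46 and -4.20 in MH. LN511 replicate 2 again reached the MH range, and the difference was 3.86 ± 0.61 (adjusted p = 0.0002083). On LN511 alone, Col5a1 at 0.67 (limma adjusted p = 0.126) and Col5a3 at 1.08 (adjusted p = 0.2193) did not pass against MH. Col5a2 passed there, at 2.13 (adjusted p = 0.0001345).

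Col11a1, a minor chain that nucleates fibrils, had levels of -0.63, -0.29 and 1.03 on LN111, -3.48, -6.42 and -4.06 on LN511 and -1.47, -2.04 and -1.39 on Mat, against -7.48, -7.77 and -7.37 in MH. It was well above background on 8 of 9 cultured arrays and on no MH array, so only a bound can be given: at least 9.34-fold higher in cultured cells (adjusted p = 8e-06). Here and below, the mean of the brighter arrays is divided, for such a bound, by a floor set on each dim array: the lowest signal called well above background, or the probe's own signal if higher. Col27a1, a fibrillar chain known from cartilage, had levels of 0.67, -0.34 and 0.18 on LN111, -0.68, -1.29 and -0.74 on LN511 and 0.00, -0.67 and -0.14 on Mat, against -0.52, -2.28 and -1.22 in MH. Its groups overlapped, and its difference of 1.00 ± 0.34 (adjusted p = 0.02273) was 0.53 without MH replicate 2 (adjusted p = 0.1459).

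Averaged over the coatings, Col3a1 and Col2a1 did not rise over MH as the other fibrillar genes tested did. Between the coatings Col3a1 had the same order of means as those genes. Col3a1 forms homotrimers beside type I in reticular fibres. It had levels of 3.38, 2.28 and 3.77 on LN111, 0.05, -3.56 and -2.0 on LN511 and 2.59, 0.79 and 2.47 on Mat, against -0.19, 1.11 and 0.94 in MH. LN111 was above MH on every array, LN511 replicates 2 and 3 were below it, and the mean difference between cultured cells and MH was 0.47 ± 0.69 (adjusted p = 0.5607). Col2a1, the fibrillar collagen of cartilage, had levels of -6.68, -5.66 and -5.71 on LN111, -6.68, -6.11 and -6.50 on LN511 and -7.18, -7.22 and -6.75 on Mat, against -4.66, -3.10 and -4.59 in MH. It was well above background on all 3 MH arrays and on 1 of 9 cultured arrays, all of which lay below MH (adjusted p = 0.0001082). The bounds were at least 3.08-fold lower on LN511 and at least 5.18-fold lower on Mat, where no array was well above background.

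The probes of Col2a1 and Col3a1 are shown because these 2 genes were not called higher in cultured cells than in MH. Their probes also read a stretch that the chains share. Each is 60 bases, as printed in the scanner files, with coordinates on the rn4 build. Capitals mark the 20 identical bases of the 34 aligned in their best overlap without gaps, 58.8% identity.
Col2a1 probe (chr7:136679416-136679475, minus strand): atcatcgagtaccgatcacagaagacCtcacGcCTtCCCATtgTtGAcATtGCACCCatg
Col3a1 probe (chr9:44317465-44317524, plus strand): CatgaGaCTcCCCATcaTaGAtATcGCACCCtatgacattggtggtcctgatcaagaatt
Whether either probe takes up transcripts of the other gene was not tested.

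**Figure D2:**
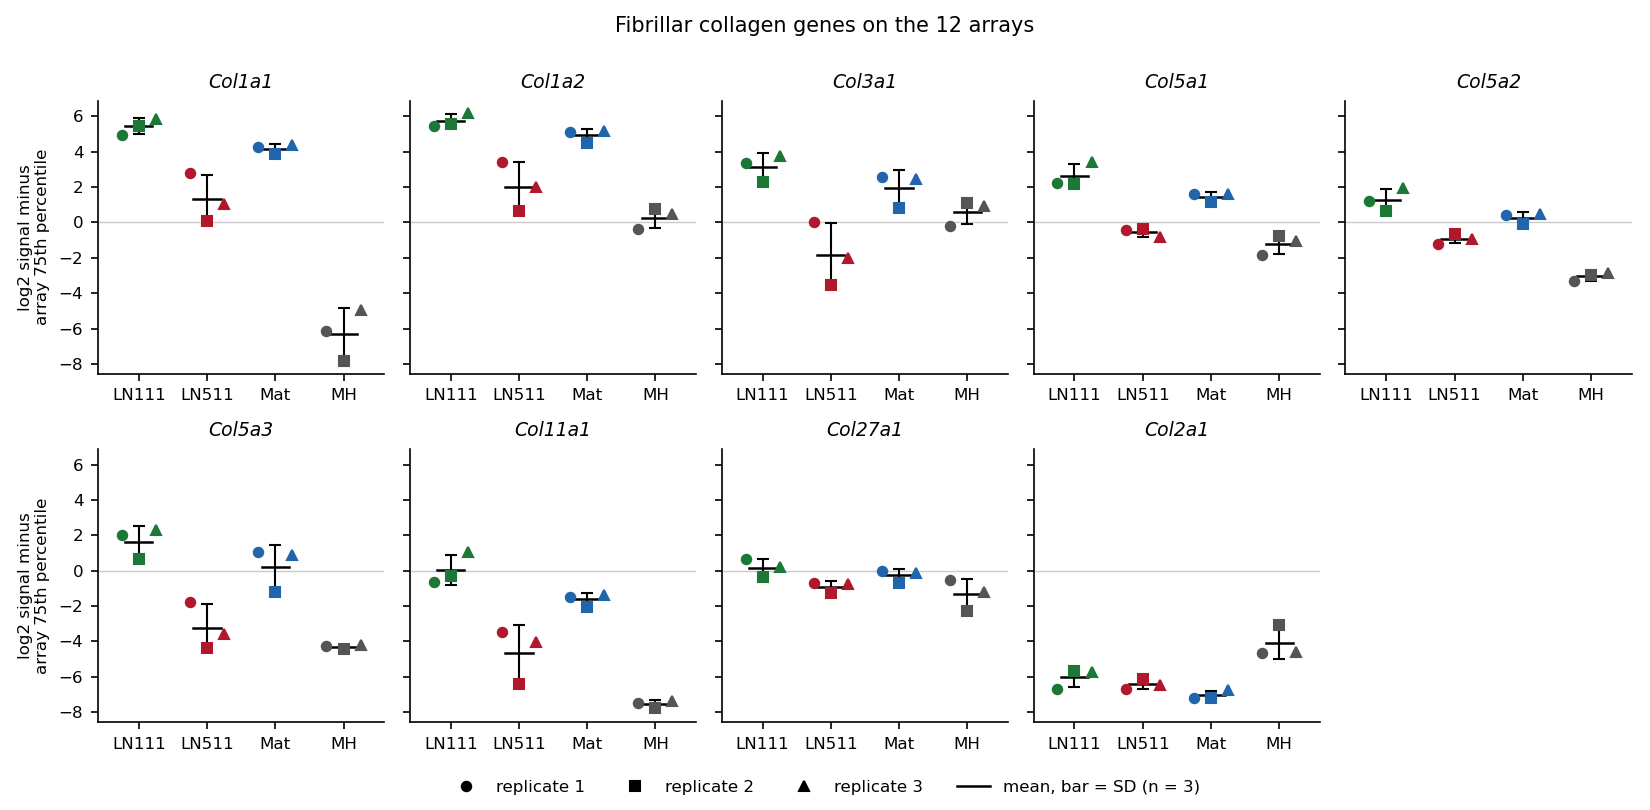
Level (log2 signal minus the array's 75th percentile) of the 9 fibrillar collagen genes tested on each of the 12 arrays, by group, with replicates as symbols and the group mean with its SD (n = 3). LN111 is highest in 8 of the panels, LN511 lies below Mat in the same 8, and Col2a1 is the gene with MH on top.

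Among the basement membrane genes, type IV chains and the multiplexin Col15a1 rose while Col18a1 fell. Col4a1, the common chain of type IV, had levels of 3.98, 3.75 and 4.72 on LN111, 2.28, 3.19 and 2.73 on LN511 and 3.50, 3.39 and 3.44 on Mat, against -1.62, -1.25 and -1.06 in MH. Cultured and MH arrays were far apart, with a difference of 4.75 ± 0.23 (adjusted p = 4.396e-08). Its partner chain Col4a2, read by another probe, had levels of 0.13, -0.12 and 0.86 on LN111, -1.40, -0.99 and -1.13 on LN511 and -0.71, -0.94 and -0.70 on Mat, against -5.13, -4.77 and -4.73 in MH. Its difference was 4.32 ± 0.20 (adjusted p = 2.683e-08), so the chains that join in the type IV trimer were both higher in culture, without overlap.

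Col4a1 and Col4a2 lie head to head on the genome and are known to share a promoter. The interval between their starts is printed because both genes rose. In RefSeq's GRCr8 annotation it spans 76 bases at chr16:84885521-84885596, with a GC content of 78.9%, and is given on the Col4a1 strand.
Col4a1 to Col4a2 interval: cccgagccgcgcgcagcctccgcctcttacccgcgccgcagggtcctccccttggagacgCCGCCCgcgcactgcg
Capitals mark the match to GGGCGG, the GC box, which reads on the Col4a2 strand 16 bases from the Col4a1 start. Searched on both strands, windows of that length before the start held it in 18.1% of 33469 RefSeq promoters. CCAAT and TATAAA, searched in the same way, had no match in these letters and were held by 13.0% and 4.61% of promoters. Over the 250 bases before the start, 17 of the 31 collagen genes with a promoter in the table held GGGCGG (54.8%), against 30.5% of all promoters. A match describes letters and is not a binding site.

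Col4a6, a chain of specialised basement membranes, had levels of -4.13, -2.85 and -3.56 on LN111, -4.06, -3.19 and -3.26 on LN511 and -3.59, -2.67 and -3.79 on Mat, against -7.55, -7.84 and -7.42 in MH. It was not well above background in MH and was at least 3.61-fold higher in cultured cells (adjusted p = 9.543e-07), but another probe tied to Col4a6 gave a difference of only -0.11. Col7a1, which forms the anchoring fibrils under epithelia, had levels of -1.54, -3.0 and -0.43 on LN111, -4.28, -6.36 and -4.54 on LN511 and -2.40, -4.23 and -2.31 on Mat, against -7.46, -7.75 and -7.31 in MH. Measured on no MH array, it was at least 4.21-fold higher in cultured cells (adjusted p = 0.0001049).

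Col15a1 and Col18a1 are close relatives, the multiplexins, whose cores end in endostatin-like domains, and they went opposite ways. Col15a1 had levels of 2.07, 2.50 and 3.86 on LN111, -1.30, -3.14 and -1.53 on LN511 and 1.59, 0.87 and 1.47 on Mat, against -7.49, -7.75 and -7.07 in MH, where it was on no array well above background. The bound was at least 64.7-fold higher in cultured cells (adjusted p = 8.519e-08). Col18a1 had levels of 1.42, 2.20 and 0.58 on LN111, 2.15, 2.76 and 2.33 on LN511 and 2.06, 2.66 and 1.94 on Mat, against 3.17, 3.13 and 3.11 in MH. All cultured arrays were below MH, with a difference of -1.13 ± 0.29 (adjusted p = 0.005359), though the call was lost with the slide as a block (-0.80, adjusted p = 0.2242) and the Mat comparison turned to 0.69 without scaling between arrays.

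**Figure D3:**
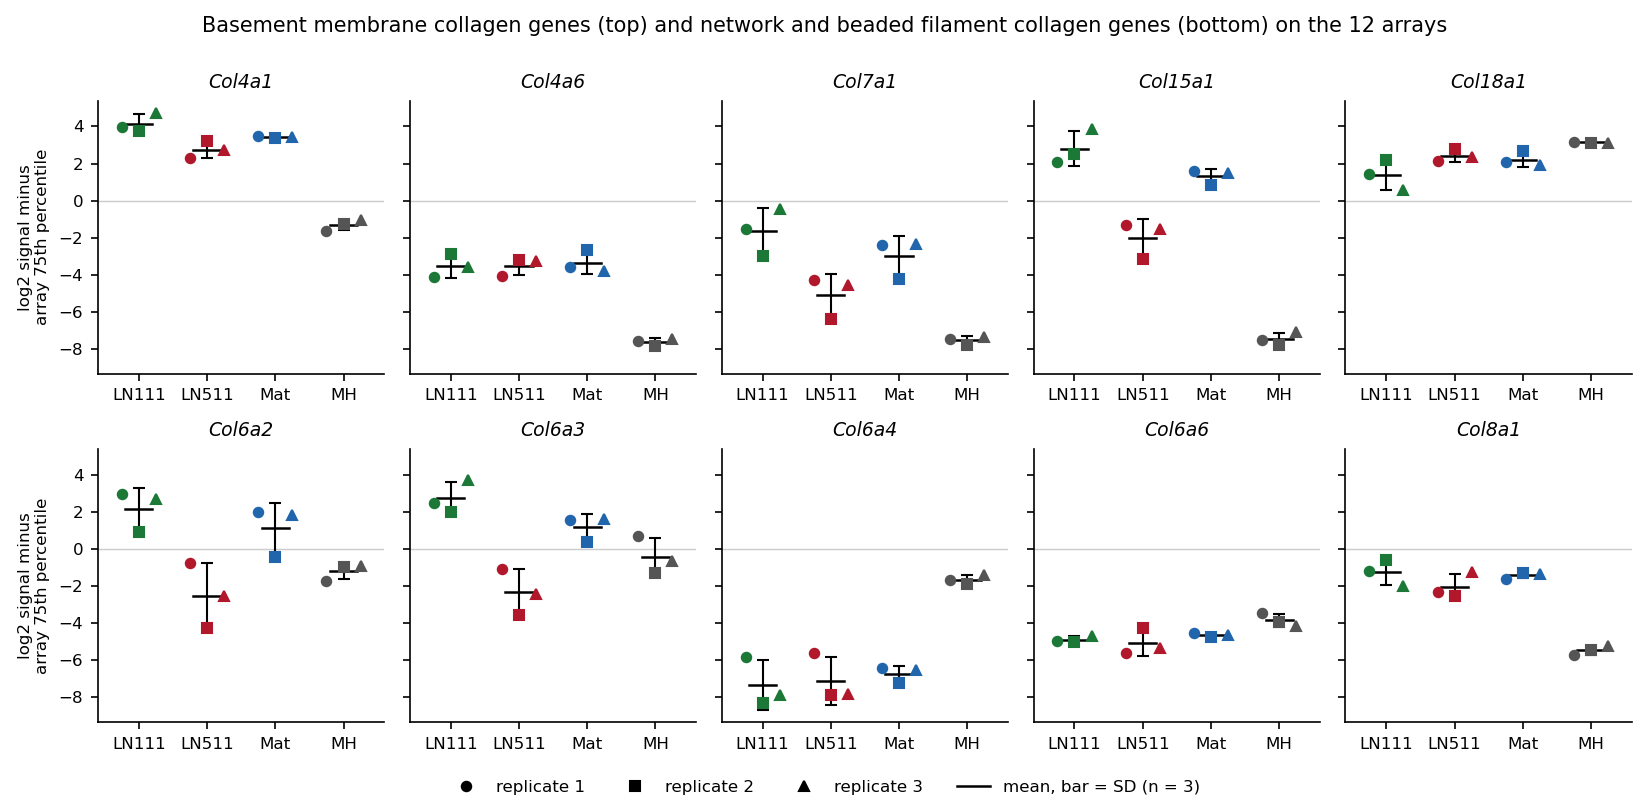
Level of the 5 basement membrane (top) and 5 network and beaded filament (bottom) collagen genes tested on each of the 12 arrays, drawn as in the plot of fibrillar genes. Col4a1, Col4a6, Col7a1, Col15a1 and Col8a1 have all cultured arrays above MH, Col18a1, Col6a4 and Col6a6 have all of them below, and the LN511 arrays of Col6a2 and Col6a3 reach below MH.

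Type VI collagen is a heterotrimer of the chains of Col6a1 and Col6a2 with 1 of several longer chains. Col6a2 had levels of 2.97, 0.88 and 2.66 on LN111, -0.76, -4.28 and -2.52 on LN511 and 1.98, -0.45 and 1.84 on Mat, against -1.70, -0.98 and -0.90 in MH. Col6a3 had levels of 2.45, 1.99 and 3.72 on LN111, -1.06, -3.53 and -2.44 on LN511 and 1.57, 0.35 and 1.60 on Mat, against 0.69, -1.30 and -0.66 in MH. Both were above MH on every LN111 array, while LN511 replicates 2 and 3 lay below all MH arrays, and the differences averaged over coatings were 1.45 ± 0.76 (adjusted p = 0.1062) and 0.94 ± 0.59 (adjusted p = 0.1732). Col6a1, by another probe, had levels of 1.30, -0.55 and 0.61 on LN111, -2.34, -5.78 and -4.27 on LN511 and 0.05, -2.15 and 0.15 on Mat, against -2.86, -2.55 and -2.61 in MH, a difference of 1.23 ± 0.70 (adjusted p = 0.1386). It had the same order of groups as Col6a2 and Col6a3.

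Col6a4 and Col6a6, alternative long chains of type VI, were both higher in MH. Col6a4 had levels of -5.82, -8.29 and -7.87 on LN111, -5.60, -7.87 and -7.81 on LN511 and -6.41, -7.23 and -6.53 on Mat, against -1.67, -1.89 and -1.41 in MH (adjusted p = 1.202e-05). It was well above background on 2 of 9 cultured arrays and on none of LN511, where it was at least 16.9-fold lower than in MH. Col6a6 had levels between -5.61 and -4.28 on the cultured arrays, against -3.46, -3.93 and -4.17 in MH. These did not overlap, and its difference of -1.02 ± 0.25 (adjusted p = 0.004322) became 0.03 without scaling between arrays.

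Col8a1, a short-chain collagen of hexagonal networks, had levels of -1.19, -0.60 and -2.0 on LN111, -2.33, -2.53 and -1.25 on LN511 and -1.60, -1.31 and -1.38 on Mat, against -5.72, -5.45 and -5.23 in MH. All cultured arrays lay above MH, where 1 of 3 arrays was well above background, and the rise was 3.89 ± 0.31 (adjusted p = 1.551e-06).

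The remaining classes hold the FACIT collagens, which sit on the surface of fibrils, and the transmembrane collagens. Col16a1, a FACIT, had levels of -1.74, 0.19 and -0.45 on LN111, -1.11, 0.06 and -0.64 on LN511 and -1.27, 0.10 and -1.26 on Mat, against -5.62, -5.05 and -4.80 in MH. The coatings overlapped fully and all stood above MH, by 4.48 ± 0.44 (adjusted p = 6.524e-06). Col12a1, a FACIT of type I fibrils read by another probe, had levels of 0.94, 0.85 and 1.07 on LN111, -1.40, -1.83 and -1.75 on LN511 and 0.20, -0.17 and 0.07 on Mat, against -6.73, -7.63 and -6.87 in MH. Not well above background in MH, it was at least 33.9-fold higher in cultured cells (adjusted p = 1.43e-09).

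Among the transmembrane collagens, Col13a1 and Col23a1 differed in direction. Col13a1 lay between -8.98 and -6.41 on the cultured arrays, on none of which it was well above background, against -1.98, -2.17 and -1.67 in MH, and was at least 18.0-fold lower in cultured cells (adjusted p = 2.732e-08). Its other probe was well above background on no array. Col23a1 had levels of -1.45, -2.96 and -1.05 on LN111, -4.24, -6.85 and -5.62 on LN511 and -2.83, -4.54 and -2.57 on Mat, against -7.55, -7.83 and -7.23 in MH. All cultured arrays lay above MH on this probe, which was well above background on 8 cultured arrays and no MH array. By it Col23a1 was at least 3.34-fold higher in cultured cells (adjusted p = 0.0001495), but its other probes gave fitted log2 differences of 2.15 and 0.59.

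Col9a3, a chain of the cartilage FACIT type IX, had levels of -5.65, -4.49 and -4.85 on LN111, -3.43, -4.58 and -2.90 on LN511 and -4.02, -4.55 and -4.02 on Mat, against -7.24, -7.45 and -7.03 in MH. It was at least 2.04-fold higher in cultured cells (adjusted p = 2.037e-05), being not well above background in MH. The call was lost with normexp background correction, and another probe tied to Col9a3, well above background on 2 arrays, gave 0.48. Col20a1, another FACIT, had levels of -3.01, -3.65 and -2.61 on LN111, -3.74, -3.85 and -3.44 on LN511 and -3.54, -3.98 and -3.73 on Mat, against -4.98, -6.31 and -6.83 in MH. Its bound was at least 3.26-fold higher in cultured cells (adjusted p = 7.177e-05), yet other probes tied to Col20a1 gave -1.71, 1.08 and -0.08, so its direction is uncertain. Col14a1, a FACIT of skin and tendon, and Col9a2 did not pass, at 0.54 ± 0.97 (adjusted p = 0.6315) and -0.59 ± 0.36 (adjusted p = 0.1623).

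Each coating was also set against MH, with the same 3 MH arrays in every comparison. Of the 26 genes, 19 rose and 5 fell on LN111, where 66.8% of all genes were called (27% higher and 39.8% lower). Without scaling between arrays the split on LN111 was 19 and 2, with the median over all genes at 0.77. On LN511 13 rose and 6 fell, against 67.6% of all genes called (31.1% higher and 36.5% lower). On Mat 17 rose and 5 fell, against 67.3% of all genes called (26.2% higher and 41% lower). The arrays of the coating did not overlap MH in 24 genes on LN111 (68.7% of all genes), 17 on LN511 (74.3%) and 22 on Mat (75%). The median fitted log2 difference was 3.59 on LN111, 1.44 on LN511 and 2.86 on Mat, against -0.23, -0.11 and -0.27 over all genes, and with genes at their bounds it was 3.26, 0.87 and 1.98. Over all 39 genes with no filter, 19 were higher and 11 lower on LN111, 12 and 6 on LN511, and 17 and 16 on Mat. The shares above do not apply to that fit. Its medians on LN111, LN511 and Mat were 0.93, -0.31 and 0.31 over the collagen genes, and -0.64, -0.34 and -0.90 over all genes. Of the 9 fibrillar genes 8 rose on LN111, 4 on LN511 and 7 on Mat, and 1, 2 and 1 fell. Of the 5 network and beaded filament genes, 3 rose and 2 fell on LN111, while 1 rose and 3 fell on LN511. With the slide as a block 17, 12 and 18 genes passed, and within the slide that held all MH arrays and 2 of the Mat arrays 21 passed for Mat. No slide held MH together with LN111 or LN511. Mat calls near the threshold were unstable: Col18a1, Col6a2 and Col6a6 were each lost under 8 of the 12 single arrays left out, and Col27a1 under 7.

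The coatings were compared in a fit of the 9 cultured arrays, in which 23 collagen genes were tested among 17905 genes. A limma F test over the 3 coatings called 12 of them, against 12.9% of all genes. On LN511 collagen genes were lower than on Mat: 8 fell and 0 rose, against 1.16% of all genes lower and 7.07% higher (8.22% in all). They were 6 of the 8 fibrillar genes tested, with Col15a1 of the basement membrane class and Col6a3 of the beaded filament class. The median difference was -1.20 over the 23 genes and 0.12 over all genes. By class the medians were -2.89 for fibrillar, -0.71 for basement membrane, -2.07 for network and beaded filament genes and 0.26 for the others. In 13 genes the LN511 arrays lay below the Mat arrays without overlap, where groups of all genes did not overlap in 32.2%.

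By gene, the fall on LN511 against Mat was -3.79 ± 0.91 for Col3a1 (adjusted p = 0.04259), -3.46 ± 0.83 for Col5a3 (adjusted p = 0.04278) and -3.02 ± 0.75 for Col11a1 (adjusted p = 0.0478). Col11a1 was well above background on 2 of 3 LN511 arrays, so its size leans in part on dim signal. The chains of type I moved by nearly the same amount, -2.88 ± 0.61 for Col1a1 and -2.90 ± 0.62 for Col1a2 (adjusted p = 0.02776 for each). Col5a1 fell by 2.00 ± 0.33 (adjusted p = 0.01065), Col15a1 by 3.30 ± 0.59 (adjusted p = 0.01412) and Col6a3 by 3.52 ± 0.69 (adjusted p = 0.02054). All Mat arrays stood above all LN511 arrays in each of these genes. Not passing were Col6a2 at -3.64 (adjusted p = 0.07274), its partner Col6a1 at -3.48 by another probe (adjusted p = 0.06971), Col5a2 at -1.20 (adjusted p = 0.06216) and Col4a1 at -0.71 (adjusted p = 0.21). The fibril-associated Col12a1, by another probe, had a difference of -1.69 ± 0.16 (adjusted p = 0.001825).

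Slides separate these groups in part, since slide 1 held Mat replicates 1 and 2 with MH and slide 2 held LN111, LN511 and Mat replicate 3. With the slide as a block, and likewise within slide 2, 0 of the 23 genes passed limma's adjusted threshold, while 11 had an unadjusted p under 0.05. Of the 8 genes the differences then ran from -4.31 for Col3a1 to -2.13 for Col5a1, with adjusted p from 0.1164 to 0.2866 with the block. Within slide 2, 1 Mat array stood against 3 LN511 arrays and was assumed to vary like the other groups. The titles give the replicates shared numbers, and LN511 and Mat arrays of 1 number deviated together, so the pair was also used as a block: 13 genes then passed, the added ones being Col5a2, Col6a2, Col7a1, Col23a1 and Col27a1. Leaving out 1 array kept 8 of the 8 calls without LN511 replicate 1, 6 without LN111 replicate 2 or 3, 5 without LN111 replicate 1, 4 without Mat replicate 2, 3 without LN511 replicate 2, 2 without LN511 replicate 3 and 1 without Mat replicate 1 or 3. Col5a1 kept its call in each of these.

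Between the laminins, collagen genes were higher on LN111. Of 23 genes 14 rose and 0 fell against LN511, where 6.13% of all genes were higher and 11.8% lower (17.9% in all), with a median of 2.20 against -0.15 over all genes. All 8 fibrillar genes tested rose, with 3 of 5 basement membrane genes, 2 of 4 network and beaded filament genes and Col23a1 of the others. With the replicate number as a block 14 were higher and 2 lower (Col14a1 and Col18a1), without LN111 replicate 2 there were 15 and 2, and without LN511 replicate 2 there were 10 and 1. The class medians were 3.93, 1.41, 2.73 and -0.28 in the same order. In these 14 genes every LN111 array was above every LN511 array, where 35% of all genes had groups without overlap. All 6 arrays lay on slide 2, and a fit within that slide kept 11 of the 14, losing Col27a1 (adjusted p = 0.0909), Col4a1 (adjusted p = 0.05853) and Col7a1 (adjusted p = 0.0568).

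The differences of LN111 over LN511 were 4.98 ± 0.91 for Col3a1 (adjusted p = 0.009859), 4.88 ± 0.83 for Col5a3 (adjusted p = 0.007962) and 4.69 ± 0.75 for Col11a1 (adjusted p = 0.006577). They were 4.14 ± 0.61 for Col1a1 (adjusted p = 0.005097), 3.72 ± 0.62 for Col1a2 (adjusted p = 0.007525) and 3.15 ± 0.33 for Col5a1 (adjusted p = 0.002436). Smaller ones were 2.20 ± 0.32 for Col5a2 (adjusted p = 0.005017) and 1.07 ± 0.30 for Col27a1 (adjusted p = 0.04605), so the fibrillar genes spanned a wide range. In the other classes the differences were 5.06 ± 0.69 for Col6a3 (adjusted p = 0.004177), 4.69 ± 1.02 for Col6a2 (adjusted p = 0.01845), 4.80 ± 0.59 for Col15a1 (adjusted p = 0.003429) and 1.41 ± 0.30 for Col4a1 (adjusted p = 0.01561). Col7a1 and Col23a1 rose by 3.40 ± 0.83 (adjusted p = 0.0281) and 3.75 ± 0.81 (adjusted p = 0.01763), though another probe of Col23a1 gave -0.11. Col7a1, Col23a1 and Col11a1 entered this fit through LN111 and Mat. They were well above background on 2 of 3 LN511 arrays, so their sizes lean in part on dim signal. By other probes, Col4a2 was higher by 1.46 ± 0.25 (adjusted p = 0.008134), close to Col4a1, and Col12a1 by 2.61 ± 0.16 (adjusted p = 0.0009367). Col4a6, at -0.01 ± 0.42, and Col16a1, at -0.11 ± 0.58, did not pass. Without LN511 replicate 3 there were 9 calls, without LN111 replicate 1 or 3 there were 10 and without LN511 replicate 2 there were 11. Col6a2, Col7a1 and Col23a1 were lost in each of these, Col4a1 without LN511 replicate 3, and Col27a1 in 7 of the 9 single omissions.

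**Figure D4:**
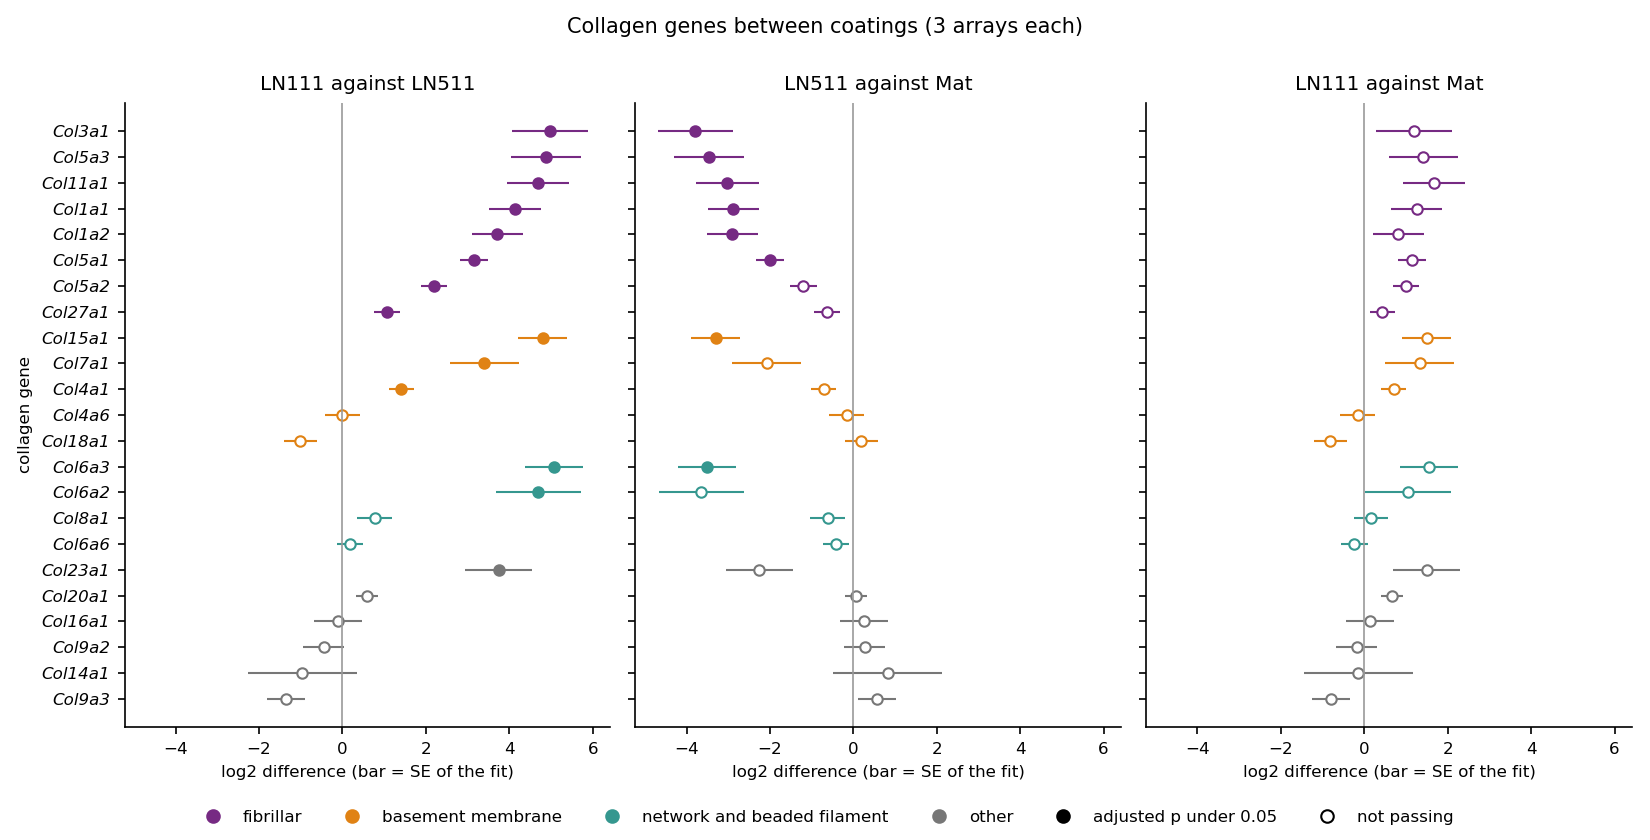
Log2 difference of the 23 collagen genes tested between coatings (3 arrays each), with the standard error of the limma fit as bars, coloured by class and filled where the adjusted p was under 0.05. LN111 against LN511 has 14 filled points, all to the right, LN511 against Mat has 8, all to the left, and LN111 against Mat has 0.

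No collagen gene passed between LN111 and Mat. At an adjusted p under 0.05, limma called 0 of 23 collagen genes and 0% of all genes. Without adjustment 5 collagen genes and 2180 of 17905 genes had a p under 0.05, and the lowest adjusted p of a collagen gene was 0.3294. The point estimates were above 0 in 17 of 23 genes, with a median of 0.82 against 0.01 over all genes, and in 8 genes the LN111 arrays lay above the Mat arrays without overlap, against 17.8% of all genes without overlap. With the slide as a block and within slide 2 the count was also 0, there with 0 collagen genes at an unadjusted p under 0.05. These results do not show that the coatings gave equal levels.

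For 3 genes the group means of the laminins stood on opposite sides of the MH mean, although LN511 replicate 1 lay inside the MH range for Col3a1 and Col6a3 and above it for Col6a2. Against MH, Col3a1 differed by 2.52 on LN111 (adjusted p = 0.02295) and by -2.46 on LN511 (adjusted p = 0.02552). Col6a3 differed by 3.14 on LN111 (adjusted p = 0.003016) and by -1.92 on LN511 (adjusted p = 0.03612). Col6a2 differed by 3.37 on LN111 (adjusted p = 0.008385), while its value on LN511 was -1.32 and did not pass (adjusted p = 0.2277). The call of Col3a1 was lost for LN111 without LN111 replicate 1 or 3 or MH replicate 1 (adjusted p up to 0.07991), and for LN511 without LN511 replicate 2 or 3 or MH replicate 2 or 3 (up to 0.09756). The call of Col6a3 on LN511 was lost without LN511 replicate 2 or 3 or MH replicate 1 or 3 (up to 0.1377). With the slide as a block, the values against MH were 1.75 and -3.24 for Col3a1, 2.30 and -2.40 for Col6a2 and 2.50 and -2.56 for Col6a3, for LN111 and LN511 in turn, and none passed (adjusted p 0.1264 to 0.4042).

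Arrays within a coating were not alike in these genes. Over the 11 fibrillar and type VI genes measured in both fits, the median deviation from the group mean was -0.51 on LN111 replicate 2, -1.19 on LN511 replicate 2 and -0.41 on Mat replicate 2, so replicate 2 was the low array of each coating. LN511 replicate 1 was the highest of its group at 1.28 and LN111 replicate 3, the array with most outlier spots, of its group at 0.62, while MH arrays stayed between -0.07 and 0.17. Over 23 genes the median SD between replicates was 0.77 on LN111, 0.86 on LN511, 0.37 on Mat and 0.34 in MH, with the widest LN511 spread in Col3a1 (1.81). Col14a1 had the widest spread on LN111 and Mat, at 1.80 and 2.04.

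Genes that fold, modify and export procollagen rose in part with the collagens. Of 20 listed, 17 were tested, and in cultured cells against MH 11 rose and 3 fell, where 30.8% of all genes rose and 42% fell, with a median of 1.07 against -0.18 over all genes. Serpinh1, the collagen chaperone HSP47, rose by 2.76 ± 0.15 (adjusted p = 7.692e-08), with group means of 2.11 on LN111, 0.55 on LN511 and 1.60 on Mat, against -1.34 in MH. P3h3 and P3h4, of the prolyl 3-hydroxylase family, rose by 3.03 and 3.85, and Mia2, a cargo receptor for large secretory loads, fell by 1.99. Plod2, which hydroxylates telopeptide lysines for stable crosslinks, averaged 1.59 on LN111, -2.33 on LN511 and 0.28 on Mat and was not well above background in MH. On LN511 5 of the 17 were lower than on Mat and 0 higher (1.16% and 7.07% of all genes), among them Serpinh1 (-1.05, adjusted p = 0.01293) and Plod2 (-2.61, adjusted p = 0.04753). On LN111 8 were higher than on LN511 and 0 lower (6.13% and 11.8% of all genes), led by Plod2 (3.92, adjusted p = 0.00746). Between LN111 and Mat 0 of 17 passed limma's adjusted test and 7 had an unadjusted p under 0.05, as had 2180 of all 17905 genes.

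Of 14 listed genes that cleave propeptides or crosslink collagen, 11 were tested, and in cultured cells 6 rose and 2 fell against MH, a share called near the 72.8% of all genes. Pxdn, the peroxidase that crosslinks type IV collagen, rose by 3.56 ± 0.19 (adjusted p = 7.867e-08), and Pcolce, the enhancer of propeptide cleavage, by 2.71 ± 0.17 (adjusted p = 1.994e-07). The lysyl oxidases Lox and Loxl1 were not well above background in MH, while Lox averaged 1.61 on LN111, -2.35 on LN511 and 0.33 on Mat. On LN511 4 of 11 were lower than on Mat, including Lox (-2.69, adjusted p = 0.01939) and Pcolce (-1.28, adjusted p = 0.009519), and 1 was higher, against 1.16% of all genes lower and 7.07% higher. On LN111 7 were higher and 2 lower than on LN511 (6.13% and 11.8% of all genes), with Lox at 3.97 (adjusted p = 0.003925). Between LN111 and Mat 0 passed, with 7 of 11 at an unadjusted p under 0.05, against 2180 of all 17905 genes. Loxl1 averaged 0.25 on LN111, 0.61 on LN511 and 0.35 on Mat and passed in no comparison of coatings.

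**Figure D5:**
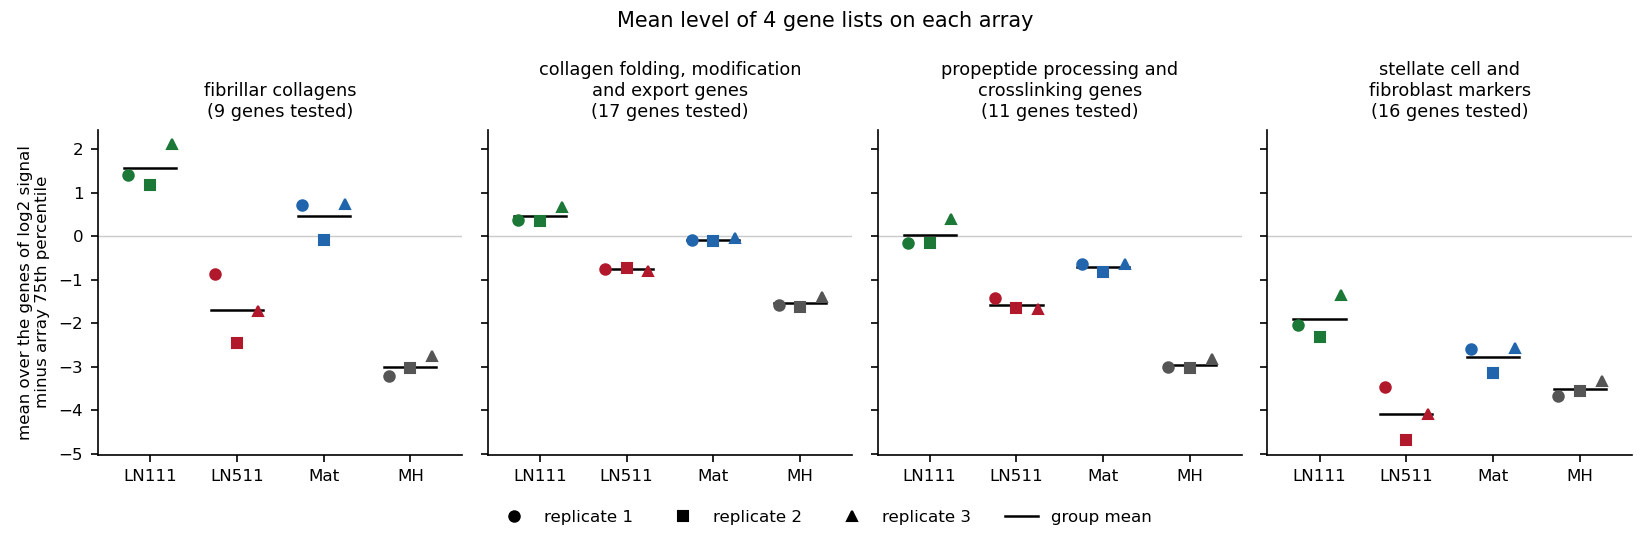
Mean level per array of the tested genes of 4 lists (fibrillar collagens, collagen folding genes, propeptide and crosslinking genes, stellate cell and fibroblast markers), by group, with replicates as symbols and the group mean as a line. In each panel LN111 is highest and LN511 is below Mat, and for the marker list alone the LN511 mean is also below MH.

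Markers of other collagen-producing cells moved with the coatings too. Of 20 stellate cell and fibroblast markers 16 were tested, and in cultured cells 6 rose and 3 fell against MH, fewer of those tested than the 72.8% called over all genes. The other 7 did not pass. Against MH 9 rose and 2 fell on LN111 (27% and 39.8% of all genes). On LN511 2 rose and 5 fell (31.1% and 36.5%), and on Mat 6 rose and 3 fell (26.2% and 41%). Their mean level per array was -2.31 to -1.34 on LN111, -4.68 to -3.47 on LN511 and -3.16 to -2.57 on Mat, against -3.68 to -3.33 in MH, while that of the fibrillar collagens was 1.17 to 2.11 on LN111, -2.45 to -0.88 on LN511 and -0.10 to 0.74 on Mat, against -3.20 to -2.75 in MH. On LN111 9 of 14 markers were higher than on LN511 and 0 lower (6.13% and 11.8% of all genes), and on LN511 3 of 14 were lower than on Mat (1.16% of all genes). Between LN111 and Mat 0 passed limma's test, with 7 of 14 at an unadjusted p under 0.05, against 2180 of all 17905 genes. Acta2 and Pdgfrb are 2 of the 16 and do not stand for the list, in which 3 markers fell in cultured cells. Acta2, smooth muscle actin of activated stellate cells, averaged -0.07 on LN111, -3.95 on LN511 and -1.75 on Mat, against -4.23 in MH. Pdgfrb, the PDGF receptor of mesenchymal cells, averaged 0.08 on LN111, -4.24 on LN511 and -1.30 on Mat, against -1.55 in MH. Well above background on no array were Rgs5 and Tcf21 on LN111, Hand2, Postn and Tcf21 on LN511, Tcf21 on Mat, and Tagln, Hand2, Postn and Fbln1 in MH. The part of these cells in the collagen results was not tested, and in bulk samples fewer cells of a type and less RNA per cell cannot be told apart.

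Of the other marker lists, 3 of 7 sinusoidal endothelial markers were higher on LN111 than on LN511 and 0 lower, and 4 of 10 biliary and progenitor markers were lower, where 6.13% of all genes were higher and 11.8% lower. Mesothelial, Kupffer cell and hepatocyte markers gave 0 limma calls of 6, 4 and 11 in that comparison, with 1, 1 and 2 at an unadjusted p under 0.05. Over all genes 5902 of 17905 had such a p. In cultured cells against MH, 9 of 11 endothelial markers fell and 1 rose, and 10 of 10 Kupffer cell and macrophage markers fell. Only 7 endothelial and 4 Kupffer cell markers met the filter in the fit of cultured arrays. The others entered through MH, where they were well above background, which favours a fall. Of the biliary and progenitor markers 10 of 10 rose, and of 6 mesothelial markers 5 rose and 1 fell. Krt19 is on both of these lists. On all 3 MH arrays only 2 of these biliary and 1 of these mesothelial markers were well above background. Entry through cultured arrays alone favours a rise without forcing one. Of the hepatocyte markers 11 of 12 fell, where 30.8% of all genes rose and 42% fell. The part of these cell types in the collagen differences was not tested.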

How the data were processed

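RNA (100 ng per sample) was labelled with Cy3 and hybridised to 12 single-colour Agilent arrays, 3 per group. Per the file headers, the authors deposited scanner intensity values from Feature Extraction 10.7.3.1 (version 10.7 in the submitters' processing notes) for a rn4 design: a background-subtracted processed intensity and raw mean and background intensities per spot. The deposited series value table holds the same signal intensity per probe, within 0.01 log2 of the scanner values, so its scale is linear and uncentred. Per array, its median value was 61.8, 59.0 or 45.1 in group LN111, 45.5, 49.0 or 43.6 in group LN511, 85.5, 90.9 or 57.5 in group Mat, and 27.5, 27.6 or 23.6 in group MH. It served as an alternative. Control spots and outlier-marked spots were left out, spots of a probe averaged, and log2 of the processed intensity taken minus each array's 75th percentile. Probe names were updated through RefSeq accessions for 21102 of 45598 probes, and otherwise kept or matched by symbol. The usable probe of highest mean signal stood for a gene, and 109 probes lost to outlier marks were not used. limma 3.58.1 in R 4.3.3 fitted group means over all genes, with MH comparisons from all 12 arrays and coating comparisons from the 9 cultured arrays, two-sided, with Benjamini-Hochberg adjustment over all genes tested and a threshold of 0.05. The code was tested on simulated data. The number of arrays limits the precision.

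Values per array are given for collagen genes called between coatings, for up to 5 per class with the largest difference from MH without overlap, and for chain partners, and from other lists up to 5 genes of smallest p; further genes of those lists were named after their values were seen. Members, classes and lists were chosen with earlier results of these data known. Alternatives were normexp background correction (offset 50), quantile or no scaling, a strict or no filter, dim signals raised to background, the mean of probes, the value table, only the 2 groups compared, the slide or replicate number as a block, fits within a slide and each array left out in turn. Replicate numbers come from the titles, and the block by number held the LN111 arrays too. Same-numbered LN511 and Mat arrays deviated from their group means together (correlations 0.54, 0.72 and 0.13, all over 0.1), which met the rule set for pairing. Unlike numbers reached 0.53 (LN511 replicate 1 with Mat replicate 3) and 0.20 (LN511 replicate 3 with Mat replicate 1), so pairing by number is not shown.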

Additional observations from a re-analysis of the deposited data

Results flagged for a closer look

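Col3a1, Col6a2 and Col6a3 stood out because the means of LN111 and LN511 lay on opposite sides of the MH mean while differing from each other in limma's test. On LN511 Col6a2 did not pass against MH (-1.32, adjusted p = 0.2277), and LN511 replicate 1 was not below the MH arrays for any of the 3. The difference of LN111 over LN511 was 4.98 for Col3a1 (adjusted p = 0.009859), 4.69 for Col6a2 (adjusted p = 0.01845) and 5.06 for Col6a3 (adjusted p = 0.004177).

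Signal also appeared on probes that name a collagen gene only in their description. Such a probe of Col12a1 was not well above background on any MH array and was at least 33.9-fold higher in cultured cells (adjusted p = 1.43e-09), so its fitted log2 difference of 6.86 does not measure the size. A probe of Col4a5, a type IV chain, had levels of -3.36, -2.16 and -3.04 on LN111, -3.05, -1.82 and -2.25 on LN511 and -3.01, -2.18 and -3.28 on Mat, against -5.78, -4.58 and -4.42 in MH. All cultured arrays were above MH, and the difference was 2.24 (adjusted p = 0.0004253).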

How the results depend on the processing

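For cultured cells, LN111, LN511 and Mat against MH, the counts of 21, 24, 19 and 22 collagen genes became 7, 10, 5 and 8 under the strict filter, which left 10 genes to test, and LN511 fell to 12 with the slide as a block. For LN511 against Mat the count of 8 became 5 with no filter, 18 with no scaling, 5 with only those groups in the fit, and 0 with the slide as a block and within slide 2. Within slide 2 the F test over coatings called 4 in place of 12. Leaving out 1 array gave 20 to 22 for cultured cells, 22 to 25 for LN111, 14 to 20 for LN511 and 18 to 22 for Mat against MH. It gave 0 for LN111 against Mat, 1 to 9 for LN511 against Mat, 9 to 17 for LN111 against LN511 and 6 to 16 for the F test. The lowest came without Mat replicate 1 or 3 for LN511 against Mat, and without LN511 replicate 3 for LN111 against LN511 and for the F test.

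With the replicate number as a block, LN511 against Mat gave 13 calls. LN111 against LN511 gave 16 (14 higher and 2 lower), LN111 against Mat 0 and the F test 15. Deviations of same-numbered arrays had correlations of 0.47, 0.54 and 0.07 between LN111 and LN511. Between LN111 and Mat they were 0.55, 0.71 and 0.09. Replicate 3 did not pass 0.1 in either, so pairing by number is not shown for LN111. Against MH the replicate block gave 22, 24, 20 and 22, and it moved no other count by over 1.5 times.

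Directions turned for dim probes or with scaling. Under normexp another probe of Col4a6 gave -0.56 for LN111 and Col23a1 -0.030 for LN511 against MH. Col18a1 for Mat against MH gave 0.053 with quantile and 0.69 with no scaling. With no scaling, another probe of Col4a6 gave 0.93 for cultured cells and 1.04 for Mat, Col6a6 gave 0.026 and 0.81, and for LN511 against Mat Col20a1 gave -1.02 and its other probe -1.01. The cause was not tested, apart from the shift of all genes: with no scaling their median moved to 0.86 from -0.18 for cultured cells against MH and to -0.98 from 0.12 for LN511 against Mat. The split of calls against MH, 16 higher and 5 lower in cultured cells, was 14 and 6 with normexp. For LN511 it was 9 and 6 with normexp, in place of 13 and 6. The value table gave the same counts as the scanner files. Genes not well above background have only bounds.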
